A study of Mus musculus with 6 samples.

Results

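The genes described here are 37 components of the primary cilium, the single antenna-like organelle through which neural progenitors receive Sonic hedgehog signals. They were chosen by name, as genes of intraflagellar transport, the BBSome, ciliary GTPases and the transition zone, and all 37 were found by symbol among the 55400 genes of the deposited table. Their mRNA was measured in motor neuron progenitors made from C57BL/6 mouse embryonic stem cells, 3 libraries labelled control and 3 labelled Setd5sh, all with the genotype given as WT and all harvested on day 4. The stem cells had been kept on mouse embryonic fibroblast feeders. Both groups were seeded at 500 cells per embryoid body on day 0, plated on day 2 in 1 µM all-trans retinoic acid, a caudalizing signal for neural cells, and 0.5 µM SAG, a small molecule that activates the hedgehog receptor component Smoothened, and given new medium on day 3. The labels give every library, control included, the same 36 h of 1 µg/mL doxycycline ahead of harvest. The labels do not spell out Setd5sh, which reads as a short hairpin RNA against the SET domain gene Setd5, nor say whether the control cells carried another hairpin, which clone was used, or whether the replicates were grown as separate cultures. The spread that the p-values rest on is thus that of these libraries and may be technical.

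Cilia are built by intraflagellar transport, in which trains of 2 protein complexes, IFT-B and IFT-A, carry cargo along the microtubules of the axoneme. Kinesin-2 moves the trains out to the tip and cytoplasmic dynein-2 brings them back, while the BBSome, an adaptor that rides on the trains, takes membrane proteins out of the cilium. The transition zone at the base acts as a gate. In the mouse neural tube, hedgehog signalling passes through this organelle: the receptor Patched leaves and Smoothened enters it, and Gli transcription factors are processed in it, so that mutants of many of these genes lose or change ventral cell types.

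Many ciliary genes carry an X-box in their promoter, the palindromic site of the RFX transcription factors, and the set was searched for it because the listing did not use sequence. RefSeq promoter windows of 300 bases on build GRCm38.p6, from 250 bases before the start to 50 after it, were given for 34 of the 37 genes, leaving out Ift80, Ift81 and Ift122. The motif searched was GTTNCC, then 0 to 3 bases of any kind, then GGNAAC, which reads the same on both strands. It was present in 5 of the 34 windows, or 14.7% (exact binomial 95% interval 4.95 to 31.1%), against 253 of all 27025 genes with a window, or 0.936%, and 89 of the 8833 genes that were both tested here and had a window, or 1.01%. These 5 are shown with the match in capitals, up to 8 bases on either side, on the strand of the gene. The windows of the other 29 members held no full match.
Bbs7 (chr3:36613489-36613518, minus strand): gcgccccgGTTGCCTTGGAAACcggccagc
Ift57 (chr16:49699226-49699254, plus strand): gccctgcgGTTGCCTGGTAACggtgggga
Mks1 (chr11:87853183-87853212, plus strand): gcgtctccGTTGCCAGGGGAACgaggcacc
Tctn1 (chr5:122264411-122264432, minus strand): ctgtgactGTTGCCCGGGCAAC
Tctn3 (chr19:40612351-40612379, minus strand): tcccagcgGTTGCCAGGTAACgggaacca
The 5 matches share the left arm GTTGCC and differ in the spacer or the right arm, and Ift57 and Tctn3 have the same right arm, GGTAAC, after different spacers. Their first base lay 121, 60, 24 and 140 bases before the RefSeq start in Bbs7, Ift57, Mks1 and Tctn3, and 36 bases after it in Tctn1. GENCODE places some of these starts elsewhere. Of the 7 transition zone genes 3 held the motif, of the 10 BBSome and GTPase genes 1, and of the 9 IFT-B genes with a window 1; none of the 4 IFT-A genes with a window and none of the 4 motor genes did.

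The 6-base arm GTTGCC alone, on either strand and including the matches just described, was present in 17 of the 34 windows, or 50%, against 14.1% of all windows and 14.9% of those of tested genes. Counting only the bases before the start left 4 full matches, or 11.8%, against 0.788% of all windows, and 8 windows with the arm, or 23.5%, against 11.8%. Among ciliary genes that are not in the set, the full motif was in 2 of 12 windows of other transport and motor genes, 2 of 14 of other trafficking genes and 1 of 13 of other transition zone genes. It was in 0 of 12 windows of basal body genes and 0 of 12 of hedgehog pathway genes that act at the cilium. A match is a description of the letters in the window and not a measured binding site.

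**Figure D1:**
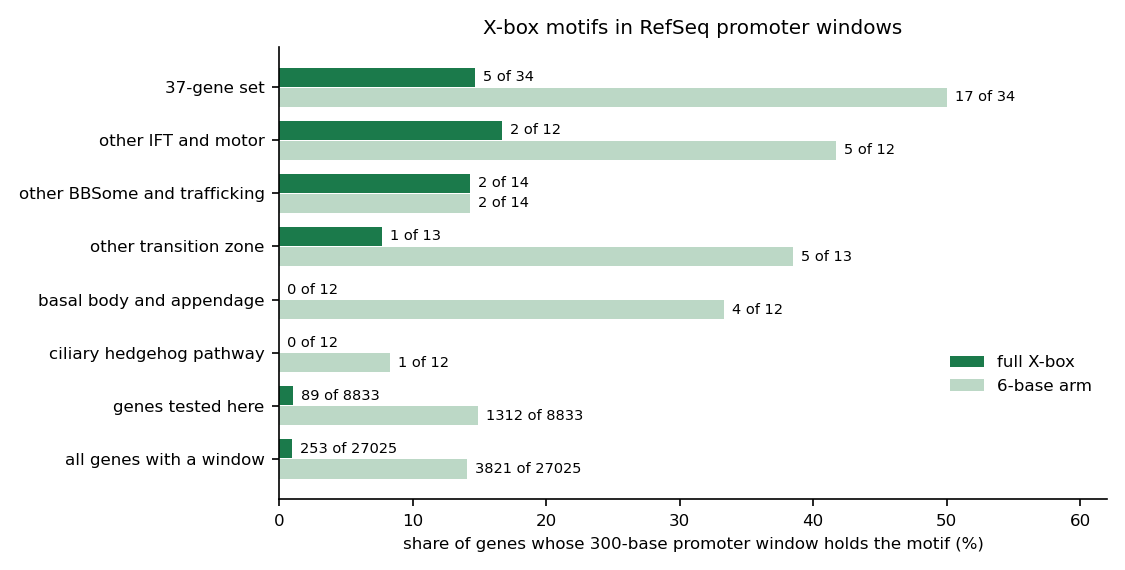
Share of genes (%, horizontal axis from 0) whose 300-base RefSeq promoter window holds the full X-box (dark bars) or the 6-base arm (light bars), for the 37-gene set, 5 other ciliary lists and all genes. The 37-gene set stood at 14.7% and 50%, against 0.936% and 14.1% of all genes with a window.

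Total counts ran from 19639303 in Setd5sh replicate 3 to 32046466 in control replicate 1. Setd5 was at 22.2, 18.8 and 16.7 FPKM in control replicates 1, 2 and 3 and at 14.4, 13.5 and 12.9 FPKM in Setd5sh replicates 1, 2 and 3, where FPKM is the count scaled to exonic length and library total. All Setd5sh libraries lay below the control libraries. An exact two-sided permutation test gave p = 0.1, which is as low as 3 libraries against 3 can go. Setd5 averaged 19.25 ± 2.76 FPKM in control against 13.59 ± 0.755 FPKM in Setd5sh (SD, n = 3 each), a partial fall. Its log2 fold change (Setd5sh minus control) was -0.51 (SE 0.16). In edgeR's quasi-likelihood test Setd5 itself was not called, with an adjusted p of 0.995 and an unadjusted p of 0.0143. Control replicate 1 stood apart from the other 5 libraries. It had a count in 26505 genes against 20979 to 23637, but it was also the library with the highest total count. Each 10 percentage points of transcript GC content went with a fall of 0.54 on the log2 scale there across 12190 genes, against slopes of -0.09 to 0.22 in the other libraries. The log2 fold change of each tested member, and of each tested gene named from the other ciliary, hedgehog pathway and Rfx lists, is therefore given with and without it. For Setd5, leaving out control replicate 1 moved the log2 fold change to -0.36 (SE 0.13, edgeR adjusted p of 0.997). Markers of cell types are given in FPKM. All 9 motor neuron progenitor markers checked, among them Olig2 and Nkx6-1, were expressed, and they summed to 314.8 to 341.3 FPKM in control and 356.4 to 416.0 FPKM in Setd5sh. They did not move together. Of the 9, 6 had a log2 fold change above 0 and 3 below, where 57.4% of all tested genes were below 0, and 0 were called. All Setd5sh libraries lay above all control libraries for 2 of them and below for 1, Sox1, where 3.07% and 2.14% of tested genes did.

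No member of the set was called between Setd5sh and control. Of the 36 members with a mean of at least 1 FPKM over the 6 libraries, 0 passed an adjusted p of 0.05 in edgeR's quasi-likelihood test, with adjusted p-values of 0.995 to 0.999, where 0% of the 12199 genes tested passed, and DESeq2 also called 0 of both. Before adjustment 0 of the 36 were under 0.05, where 1.22% of all tested genes were. The log2 fold changes (Setd5sh minus control) had a median of -0.12, against -0.04 over all tested genes, and 26 of 36 were below 0, where 57.4% of all tested genes were. The standard errors ran from 0.14 to 0.65, so that the data do not show that levels were equal. In bulk RNA, fewer cells that express a gene and less of its RNA per cell cannot be told apart.

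The leaning toward lower values rested on control replicate 1. Without that library the median of the 36 was 0.06, against 0.0061 over all tested genes, and 10 of 36 were below 0, where 48.5% of all were. The sign turned for 18 of the 36, where it turned for 34.8% of all tested genes. Again 0 members passed, with adjusted p-values of 0.997 or more, and 1 member, Bbs2, had an unadjusted p under 0.05, where 2.96% of all tested genes did.

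**Figure D2:**
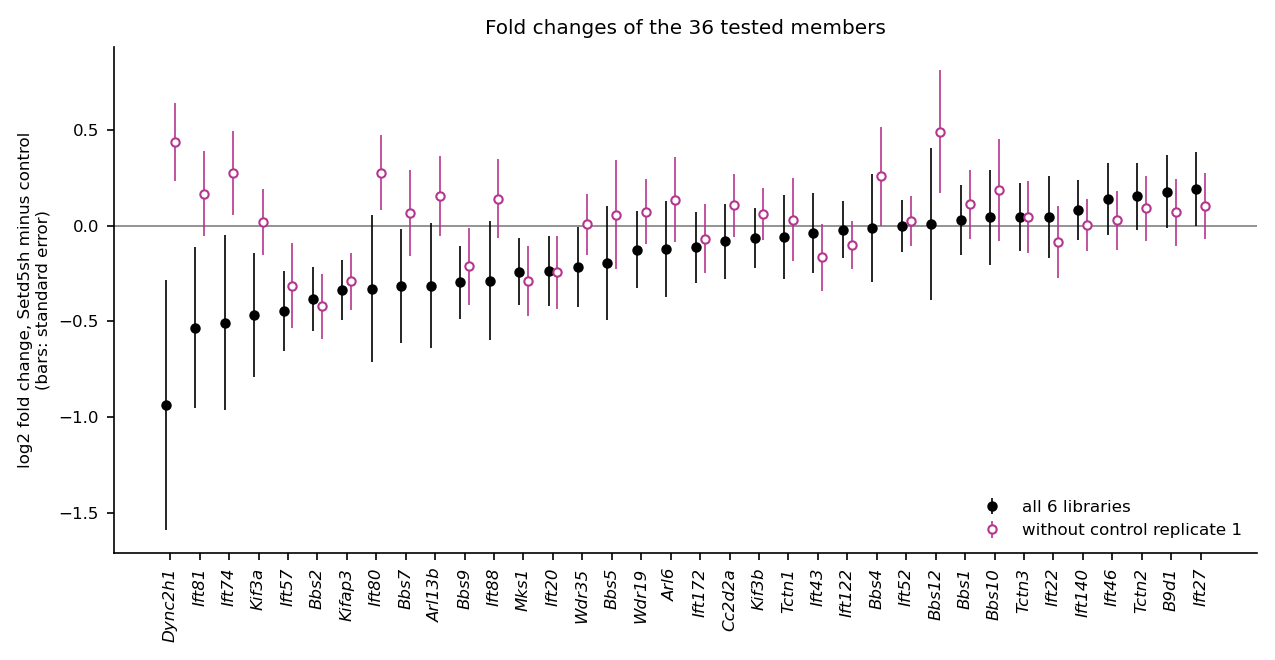
Log2 fold change (vertical axis, Setd5sh minus control) of each of the 36 tested members from the fit with all 6 libraries (filled) and from the fit without control replicate 1 (open), with bars of 1 standard error. The genes furthest below 0 with all libraries, Dync2h1, Ift81, Ift74 and Kif3a, lie above 0 without that library, and Bbs2, Kifap3 and Ift57 lie below 0 in both.

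Only 2 members had all 3 Setd5sh libraries below all 3 control libraries, Bbs2 and Ift57, where 2.14% of tested genes did, and none had them all above, where 3.07% did. Bbs2, a core subunit of the BBSome (ENSMUSG00000031755, chromosome 8, from 94067954 to 94098928 on the minus strand of mm10), was at 5.86, 6.96 and 6.82 FPKM in control replicates 1, 2 and 3 and at 4.62, 5.63 and 4.89 FPKM in Setd5sh replicates 1, 2 and 3. The highest Setd5sh library was just under the lowest control library. The means were 6.55 ± 0.599 and 5.05 ± 0.523 FPKM (SD, n = 3 each). The log2 fold change of -0.38 (SE 0.17) had an edgeR adjusted p of 0.995 and an unadjusted p of 0.0539. Leaving out control replicate 1 moved it to -0.42 (SE 0.17, edgeR adjusted p of 0.997). Ift57, a peripheral IFT-B subunit (ENSMUSG00000032965, chromosome 16, from 49699233 to 49765126 on the plus strand), was at 5.27, 4.84 and 3.97 FPKM in control replicates 1, 2 and 3 and at 3.61, 3.16 and 3.66 FPKM in the Setd5sh replicates. Here too the groups did not overlap. The log2 fold change was -0.44 (SE 0.21), and -0.31 (SE 0.22) without control replicate 1. An uncharacterized gene on the opposite strand, Gm15518, covers 7.9% of the exonic bases of Ift57, and the sources used here do not give whether counting used strand.

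The 11 IFT-B genes were all tested, and their mean levels over the 6 libraries ran from 2.79 to 17.5 FPKM. Ift52, a core subunit of the complex, was the most abundant of the 37, at 17.2, 18.0 and 17.2 FPKM in control replicates 1, 2 and 3 and at 18.2, 18.1 and 16.3 FPKM in Setd5sh replicates 1, 2 and 3. Its standard error was the smallest of the 36, and its log2 fold change was -0.0040 (SE 0.14, edgeR adjusted p of 0.999), and 0.022 without control replicate 1. Ift74 and Ift81, which form the tubulin-binding pair of the complex, looked alike in their spread. Ift74 (chromosome 4, from 94614491 to 94693229, plus strand) was at 17.3 FPKM in control replicate 1 and at 5.48 and 6.23 FPKM in control replicates 2 and 3, with 5.92, 6.17 and 8.82 FPKM in the Setd5sh replicates. Ift81 was at 5.66, 2.51 and 1.71 FPKM in the control replicates, against 2.31, 2.27 and 2.39 FPKM in Setd5sh. In both genes 1 control library was at least 1.96 times every other library, and the other 5 overlapped. Their log2 fold changes were -0.51 (SE 0.46) and -0.53 (SE 0.42) with all libraries and 0.28 (SE 0.22) and 0.17 (SE 0.22) without control replicate 1.

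Ift80 and Ift88, subunits needed for cilium assembly, also had control replicate 1 above the other 5 libraries. Ift80 was at 5.04 FPKM in control replicate 1 and at 1.76 to 2.81 FPKM in the other 5 libraries, and its log2 fold change went from -0.33 (SE 0.38) to 0.28 (SE 0.20) without that library. Ift88, the gene whose loss in the mouse removes cilia and with them the ventral response to hedgehog, was at 6.26 FPKM there and at 3.12 to 4.31 FPKM elsewhere, with a log2 fold change of -0.29 (SE 0.31) that became 0.14 (SE 0.21). Ift57 apart, the remaining IFT-B genes had control replicate 1 within or below the range of the others. Ift27, a small GTPase that links the trains to the BBSome, was the member with the smallest p among those above 0. It was at 8.29, 10.0 and 11.9 FPKM in the control replicates, against 13.1, 11.5 and 10.0 FPKM in Setd5sh, with overlapping groups and a log2 fold change of 0.19 (SE 0.19, edgeR adjusted p of 0.995), and 0.10 without control replicate 1. Ift46, which carries outer dynein arms in motile cilia, had a log2 fold change of 0.14 that became 0.027 without that library, and the small GTPase Ift22 one of 0.046 that became -0.086. Ift20, which also sits at the Golgi and sends membrane proteins to the cilium, averaged 11.4 ± 0.831 FPKM in control against 9.76 ± 1.34 FPKM in Setd5sh (SD, n = 3 each), a log2 fold change of -0.24 (SE 0.18) with and without that library. Ift172, a large subunit at the edge of the train, had a log2 fold change of -0.11, and -0.068 without it.

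The 5 IFT-A genes, which encode the complex for return transport and for the entry of membrane proteins, stayed close to 0, between -0.22 and 0.08 on the log2 scale. Ift43 was the most abundant, with 16.1 ± 3.22 FPKM in control against 15.7 ± 2.85 FPKM in Setd5sh, a log2 fold change of -0.039. Ift140 was at 7.44 ± 1.04 and 7.89 ± 0.725 FPKM and Ift122 at 4.97 ± 0.707 and 4.91 ± 0.270 FPKM (control and Setd5sh, SD, n = 3 each), with log2 fold changes of 0.082 and -0.022. In these 3 genes control replicate 1 was the lowest of the 6 libraries, the opposite of Ift74, and without it the log2 fold changes of Ift43, Ift140 and Ift122 were -0.17, 0.0050 and -0.10. Wdr35 and Wdr19 had it as the highest, at 6.68 against 4.17 to 5.36 FPKM and at 2.19 against 1.53 to 1.77 FPKM. Their log2 fold changes of -0.22 (SE 0.21) and -0.12 (SE 0.20) became 0.0081 and 0.074 without it.

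Among the motors, the kinesin-2 paralogs Kif3a and Kif3b, which pair with each other in the outbound motor, had unlike spreads. Kif3a (ENSMUSG00000018395, chromosome 11, from 53567379 to 53601967, plus strand) was at 17.3, 9.90 and 6.97 FPKM in control replicates 1, 2 and 3 and at 7.87, 8.52 and 8.75 FPKM in the Setd5sh replicates. Kif3b (ENSMUSG00000027475, chromosome 2, from 153291413 to 153333390, plus strand) was at 7.74, 6.86 and 6.22 FPKM in the control replicates, against 6.55, 6.69 and 6.85 FPKM in Setd5sh. The ratio of Kif3a to Kif3b in FPKM was 2.23 in control replicate 1 and 1.12 to 1.44 in the other 5 libraries. Log2 fold changes were -0.47 (SE 0.32) for Kif3a and -0.064 (SE 0.16) for Kif3b, and 0.018 (SE 0.17) and 0.062 (SE 0.14) without control replicate 1. Kifap3, the accessory subunit that completes the kinesin-2 trimer (ENSMUSG00000026585, chromosome 1, from 163779583 to 163917109, plus strand), was at 14.2, 15.6 and 12.4 FPKM in the control replicates, against 9.92, 12.8 and 11.0 FPKM in Setd5sh. The highest Setd5sh library passed the lowest control library by a small amount, while Setd5sh was lower in all 3 pairs of the same number. The labels do not give this pairing, and the share of all tested genes lower in every pair was not counted. Its log2 fold change was -0.34 (SE 0.16, edgeR adjusted p of 0.995, unadjusted 0.0664), and -0.29 (SE 0.15) without control replicate 1.

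Dync2h1, the heavy chain of the inbound dynein-2 motor (ENSMUSG00000047193, chromosome 9, from 6928503 to 7184446, minus strand), had the largest fold change of the set and the least certain. It was at 4.5 FPKM in control replicate 1, at 0.880 and 0.780 FPKM in control replicates 2 and 3, and at 1.27, 0.960 and 1.08 FPKM in Setd5sh replicates 1, 2 and 3. The mean of the other 5 libraries was 0.994 FPKM, so the gene reached the minimum of 1 FPKM only through control replicate 1. Without control replicate 1, every Setd5sh library was above both remaining control libraries. These levels were near the minimum, and the share of all tested genes ordered in this way was not counted. The log2 fold change was accordingly -0.94 (SE 0.65) with all libraries and 0.44 (SE 0.20) without that 1 library, with edgeR adjusted p-values of 0.995 and 0.997.

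The BBSome genes and their partners were low, with mean levels from 1.87 to 5.80 FPKM. Beside Bbs2, the subunit Bbs9 had a log2 fold change of -0.30 (SE 0.19), from 2.56 ± 0.249 FPKM in control to 2.10 ± 0.259 FPKM in Setd5sh, with overlapping groups, and the sign held without control replicate 1, at -0.21. Bbs1, the subunit that contacts the GTPase Arl6, was at 2.58 ± 0.207 and 2.65 ± 0.274 FPKM, a log2 fold change of 0.030, and 0.11 without that library. Bbs4, Bbs5 and Bbs12 were high in 2 libraries, 1 of each group. Bbs12, a chaperonin-like protein used in BBSome assembly, was at 4.92 FPKM in control replicate 1 and 4.62 FPKM in Setd5sh replicate 3, and at 2.07 to 2.74 FPKM in the other 4 libraries. Bbs5 was at 4.52 and 4.17 FPKM in those 2 libraries and at 2.45 to 3.15 FPKM in the others, and Bbs4 was at 2.40 FPKM in both and at 1.48 to 1.71 FPKM in the others. The log2 fold changes of the 3 genes were 0.0071 (SE 0.40), -0.20 (SE 0.30) and -0.011 (SE 0.28), and 0.49 (SE 0.32), 0.058 (SE 0.29) and 0.26 (SE 0.26) without control replicate 1. Bbs10, another chaperonin-like assembly factor, had a log2 fold change of 0.043 and Bbs7 one of -0.32 (SE 0.30), which became 0.19 and 0.067 without control replicate 1.

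Arl13b and Arl6, small GTPases of the ARF family, also had their highest value in control replicate 1. Arl13b, which marks the ciliary membrane and whose loss blunts the graded hedgehog response, was at 4.99 FPKM there and at 2.21 to 2.95 FPKM in the other 5 libraries. Arl6, which recruits the BBSome to membranes, was at 7.60 FPKM there and at 4.89 to 6.38 FPKM elsewhere. Log2 fold changes of -0.31 (SE 0.32) and -0.12 (SE 0.25) became 0.15 (SE 0.21) and 0.14 (SE 0.22) without it.

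Of the 7 transition zone genes 6 were tested, with log2 fold changes from -0.24 to 0.18. The tectonic paralogs, glycoproteins of the ciliary gate, were all low. Tctn3 (ENSMUSG00000025008, chromosome 19, from 40596446 to 40612233, minus strand) was at 4.74, 5.52 and 4.67 FPKM in control replicates 1, 2 and 3 and at 4.69, 5.83 and 4.96 FPKM in the Setd5sh replicates. Tctn2 (ENSMUSG00000029386, chromosome 5, from 124598749 to 124627738, plus strand) was at 2.28, 2.56 and 3.09 FPKM and at 3.13, 2.84 and 2.87 FPKM. Tctn1 (ENSMUSG00000038593, chromosome 5, from 122237848 to 122264460, minus strand) was at 2.90, 3.01 and 2.22 FPKM and at 2.43, 3.28 and 2.14 FPKM. Tctn3 was above both paralogs in every library, by 1.5 to 2.16 times over Tctn2 and 1.63 to 2.32 times over Tctn1, and for each of the 3 the groups overlapped. Exons of Hvcn1 on the opposite strand cover 19% of the exonic bases of Tctn1, so that its level is less certain. Log2 fold changes were 0.044 (SE 0.18), 0.15 (SE 0.18) and -0.059 (SE 0.22) for Tctn3, Tctn2 and Tctn1, and 0.045, 0.090 and 0.032 without control replicate 1.

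B9d1, a B9 domain protein of the gate, was the most abundant transition zone gene, at 8.81, 12.0 and 12.4 FPKM in the control replicates, against 13.0, 13.4 and 11.2 FPKM in Setd5sh, a log2 fold change of 0.18 (SE 0.19, edgeR adjusted p of 0.995), and 0.069 without control replicate 1. Mks1, its partner in the same complex, averaged 4.26 ± 0.495 FPKM in control against 3.62 ± 0.307 FPKM in Setd5sh, with overlapping groups. Setd5sh was lower in all 3 pairs of the same number, and the share of all tested genes with this order was not counted. The log2 fold change of Mks1 was -0.24 (SE 0.18), and -0.29 (SE 0.18) without control replicate 1. Cc2d2a, a C2 domain scaffold, had a log2 fold change of -0.082 (SE 0.20) that became 0.11 without that library. Rpgrip1l, which links the gate to the axoneme, fell under the expression minimum at a mean of 0.8 FPKM and was not tested. It was at 1.76 FPKM in control replicate 1 and at 0.550 to 0.730 FPKM in the other 5 libraries.

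**Figure D3:**
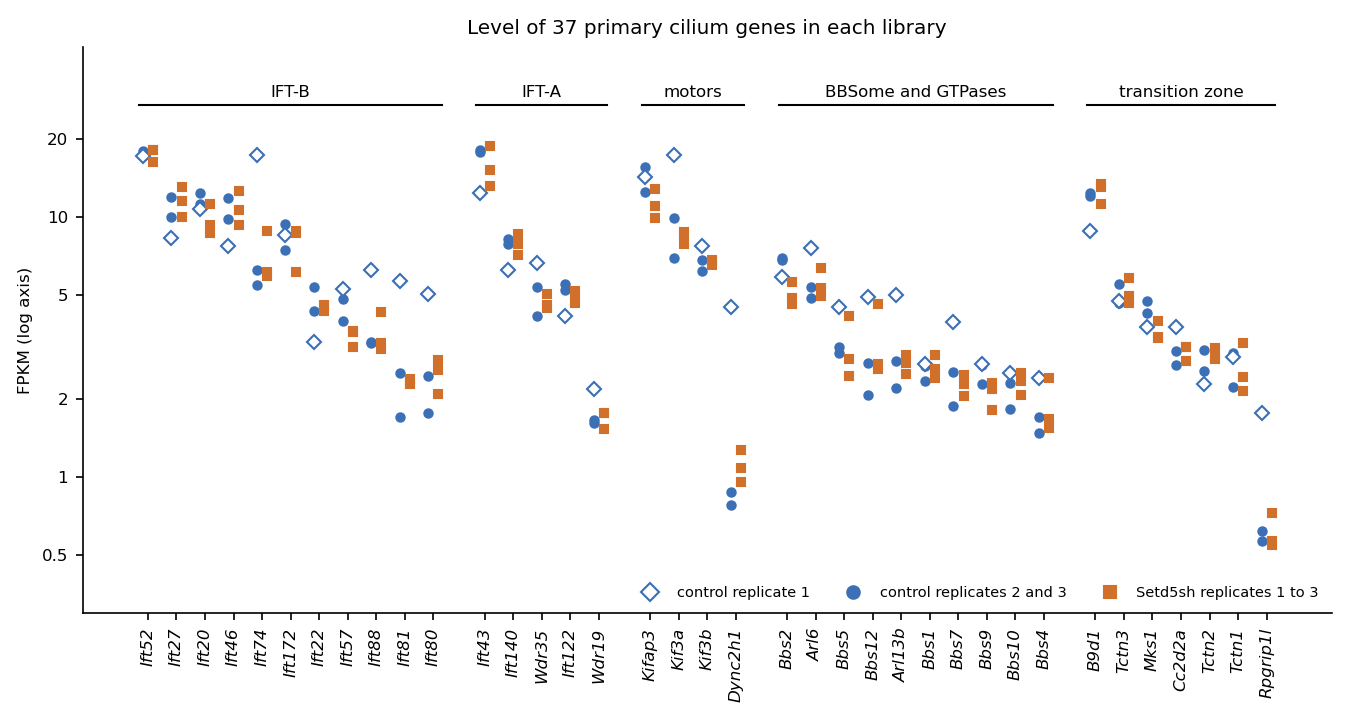
FPKM (vertical log axis) of all 37 genes in each of the 6 libraries, by role, with control replicate 1 as open diamonds, control replicates 2 and 3 as circles and the 3 Setd5sh replicates as squares. Levels run from 0.55 FPKM for Rpgrip1l to 18.74 FPKM for Ift43, and the open diamonds stand clear of the other 5 libraries in genes such as Dync2h1, Ift74 and Ift81.

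Which members were high in control replicate 1 followed the base composition of their transcripts. Taking the longest GENCODE transcript of each gene, GC content ran from 39.9% in Bbs5 to 55.8% in Ift43, with a median of 47.8% over the 36 tested members against 50% over all tested genes. The 6 members under 42% GC had a median ratio of control replicate 1 to the mean of control replicates 2 and 3 of 1.70 (range 1.47 to 2.95), and the 7 members from 42 to 45% one of 2.00 (range 1.02 to 5.42). The ratio of 5.42 is that of Dync2h1, which reached the expression minimum only through control replicate 1. The 5 members from 45 to 48% had a median of 1.34, and the 18 members above that one of 0.842 (range 0.679 to 1.18). In all tested genes the same 4 classes had medians of 1.94, 1.38, 1.11 and 0.783.

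Across the 36 members the log2 of this ratio and GC content had a Pearson r of -0.74 and a Spearman rho of -0.81. The points share the same 3 libraries, and the coefficients are a description. Dync2h1, tested only because of its level in control replicate 1, is in the coefficients and in the counts of members below. With exonic length Pearson r was 0.28. Control replicate 1 was at least 1.5 times the highest of the other 5 libraries in 7 of the 36 members, where it was in 11.8% of tested genes, and it was the highest of the 6 libraries in 17, where it was in 31.8%. Kifap3 departed from the pattern, with a ratio of 1.02 at 44.5% GC, and so did Kif3a, with a ratio of 2.05 at 47.6% GC.

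Setd5sh replicate 3 leaned the same way by less. Among the 13 members under 45% GC its median log2 deviation from the mean of the 6 libraries was 0.16, against 0.66 in control replicate 1 and between -0.29 and -0.10 in the other 4 libraries. Among the 23 members at or above 45% GC the medians of all 6 libraries lay between -0.09 and 0.07. After removal of smooth GC and length trends from each library, the median log2 fold change of the 36 was -0.016, with 20 below 0, and 0 members were called.

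**Figure D4:**
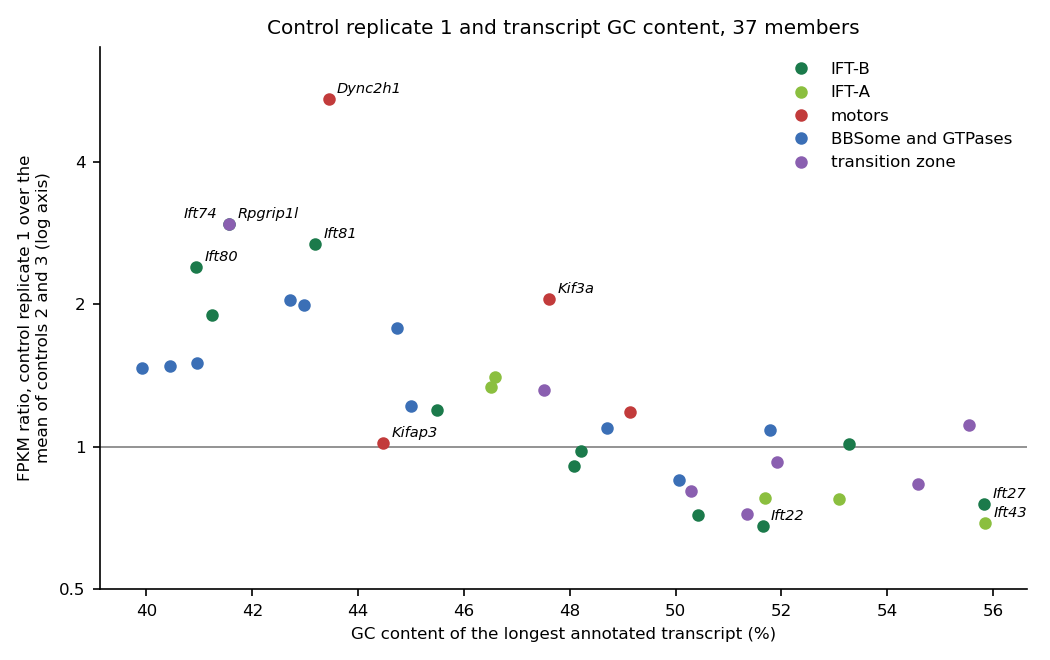
Ratio of FPKM in control replicate 1 to the mean of control replicates 2 and 3 (vertical log axis) against the GC content of the longest annotated transcript (%), for the 37 genes coloured by role. The ratio is 5.42 for Dync2h1 at 43.4% GC and 0.689 for Ift43 at 55.8% GC, and the line marks a ratio of 1. Dync2h1 reached the expression minimum only through control replicate 1. The point of Rpgrip1l covers that of Ift74.

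Other ciliary genes, from lists that do not overlap the set, were 58 in number, of which 53 were tested. None passed after adjustment, and 17 were above 0 and 36 below, where 57.4% of all tested genes were below 0. The median log2 fold change was -0.058. Without control replicate 1 it was 0.034, with 22 below 0, where 48.5% of all tested genes were. Named from the lists of transport, trafficking and gate genes by small p-values were Ttc21b, Tctex1d2 and Hspb11, then Arl2bp, Lztfl1 and Rab8a, then Iqcb1 and Ahi1. Their log2 fold changes were -0.34, -0.43 and -0.37, then 0.19, -0.62 and 0.15, then -0.45 and -0.20, all with an edgeR adjusted p of 0.995. Without control replicate 1 they were -0.20, -0.26 and -0.33, then 0.13, 0.14 and 0.12, then 0.071 and -0.12.

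Pcm1, the scaffold of centriolar satellites, was the gene most raised in control replicate 1 among the basal body genes, at 44.8 FPKM against 8.67 to 11.6 FPKM in the other 5 libraries, and its log2 fold change went from -1.04 (SE 0.61) to 0.22 without that library. Cep83 and Ttbk2, which act at the mother centriole when a cilium starts to grow, moved from -0.69 and -0.49 to -0.0083 and 0.035 on the log2 scale. The basal body list had a median of -0.30 with all libraries and 0.084 without control replicate 1. In that library 8 of 14 genes were at least 1.5 times the highest of the others, where 11.8% of tested genes were.

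Of the 15 hedgehog pathway genes that act at the cilium, all tested, 10 were above 0 and 5 below, and 0 passed. Of all tested genes 57.4% were below 0. The list's median was 0.099 on the log2 scale, and 0.15 without control replicate 1. Sufu, which holds Gli proteins inactive, was at 8.35, 11.9 and 12.3 FPKM in the control replicates, against 14.6, 12.5 and 14.3 FPKM in Setd5sh, a log2 fold change of 0.34 (SE 0.17, edgeR adjusted p of 0.995), and 0.22 without control replicate 1. Gli2, the main activator, was at 5.46, 6.27 and 6.47 FPKM, against 6.93, 6.91 and 7.01 FPKM in Setd5sh, a log2 fold change of 0.19 (SE 0.14), and 0.15 without that library. Cdon, a hedgehog co-receptor, had a log2 fold change of -0.19, and -0.24 without it. For Sufu and Gli2, named here for their small p, all Setd5sh libraries lay above all control libraries, control replicates 2 and 3 included. The same held for 3.07% of tested genes. In both genes control replicate 1 was the lowest of the 6 libraries.

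The transcription factor genes tied to X-boxes were expressed. Rfx3, a factor needed for nodal and ependymal cilia, was at 6.02, 2.23 and 1.74 FPKM in the control replicates, against 2.37, 1.98 and 2.58 FPKM in Setd5sh, and Rfx2 at 1.14, 1.18 and 1.08 FPKM and at 1.38, 1.25 and 1.39 FPKM. For Rfx2 all Setd5sh libraries lay above all control libraries, as they did for 3.07% of tested genes. Its log2 fold change was 0.23 (SE 0.20, edgeR adjusted p of 0.995), and 0.27 without control replicate 1, while that of Rfx3 went from -0.56 (SE 0.46) to 0.25. Rfx7 moved likewise from -0.30 to 0.095.

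Of the 5 members with a full X-box, 4 had a log2 fold change below 0, and so had 19 of the 28 tested members without it. The medians were -0.24 and -0.097. Without control replicate 1, 2 of the 5 and 7 of the 28 were below 0, and the medians were 0.032 and 0.065. Markers of motile, multiciliated cells were low: the 16 summed to 3.8 to 5.4 FPKM in control and 4.3 to 5.12 FPKM in Setd5sh, Gmnc and Tekt4 were listed at 0 in every library, and Foxj1 was at 0.590 to 0.810 FPKM. The highest of them, Rsph9, Rsph1 and Tekt1, had means of 1.16, 1.03 and 0.970 FPKM, above that of Rpgrip1l. Pluripotency markers summed to 83.2 and 62.1 FPKM in the 2 libraries numbered 2 and to 9.11 to 27.7 FPKM in the other 4. Most of this was 1 gene, Dppa5a, at 69.4 FPKM in control replicate 2 and 52.3 FPKM in Setd5sh replicate 2. Of the 7 pluripotency markers 4 fell under the expression minimum. Fibroblast markers summed to 5.96 to 9.76 FPKM, and postmitotic neuron markers to 50.2 to 52.3 FPKM in control against 62.7 to 85.3 FPKM in Setd5sh. The last sum was led by Tubb3, at 18.98, 17.3 and 26.1 FPKM in the control replicates, against 53.5, 30.5 and 55.0 FPKM in Setd5sh. Ina was at 3.79, 4.4 and 4.21 FPKM, against 7.71, 5.8 and 9.12 FPKM. Of the 6 neuron markers tested, 5 had a log2 fold change above 0, where 57.4% of all tested genes were below 0. The 1 below was the motor neuron gene Mnx1, at 10.7, 22.8 and 11.3 FPKM, against 7.16, 17.1 and 5.05 FPKM. Isl1, another motor neuron gene, was at 2.18, 0.73 and 0.94 FPKM, against 2.0, 0.96 and 2.75 FPKM. The part of these cell types in the levels of the ciliary genes was not tested.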

How the data were processed

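Polyadenylated RNA from 6 libraries, 3 control and 3 Setd5sh, was sequenced. The authors deposited 1 table of 55400 genes with raw read counts, FPKM values and the exonic length of each gene. Per the submitters' processing notes HISAT2, SAMtools, HTSeq, DESeq2 and mm10 were used, without roles or versions; the sources used here give neither annotation release nor strand setting. The deposited FPKM values equal the deposited count scaled to exonic length and library total to within 0.005. GENCODE M21, on the same build, supplied gene positions and GC content and named 55140 identifiers (99.5%).

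Counts were tested with edgeR's quasi-likelihood test, TMM scaling, a minimum mean of 1 FPKM and Benjamini-Hochberg adjustment over all 12199 genes tested, at a two-sided threshold of 0.05. Every fold change is the log2 value of Setd5sh less that of control. Counts behind tested members ran from 100 to 2356 per library. Alternatives were other scalings, filters, DESeq2, limma on log2(FPKM + 1) and log2(FPKM + 0.1), the replicate number as a block, removal of GC and length trends, and each library left out; leaving out both libraries numbered 1 was added after seeing the data, for counts and the median. Deviations of same-numbered libraries correlated at 0.185, 0.69 and 0.127 across genes, all above 0.1. On that rule alone the numbers were treated as pairs in the replicate block and in counts of pairs, since the labels do not say so. The main fit had no replicate block, so the fold changes, standard errors and p-values given from it are unpaired. Control replicate 1 and Setd5sh replicate 3, of different numbers, correlated at 0.191, above the 0.185 and 0.127 of same-numbered libraries. The closest 2 libraries differed by a chi-square of 6.45 per degree of freedom, so none was counted as a duplicate. On simulated counts for the 12199 genes, 4-fold changes were found at 90% by edgeR, 95% by DESeq2 and 89% by limma, 2-fold changes at 35%, 61% and 27%, and false calls numbered 8, 41 and 8.

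Members and lists were chosen with earlier results of these data known. All members are given; in full are the 3 with the smallest p in each direction, the highest and lowest by mean FPKM, and the Kif3 and Tctn paralogs, and from other ciliary lists up to 3 genes with the smallest p. A gene that this rule names is not reported here. Versions were edgeR 4.0.16, DESeq2 1.42.0 and limma 3.58.1 under R 4.3.3, with Python 3.11.15 and matplotlib 3.10.9. Promoter sequences are from RefSeq, GRCm38.p6.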

Additional observations from a re-analysis of the deposited data

How the results depend on the processing

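Calls of members did not depend on the processing: 0 were called under all 16 alternative settings and the added one, with 0 to 3 at an unadjusted p under 0.05. Over all genes 0 were called, except 73 with no filter and 70 with the replicate block and both libraries numbered 1 left out, a fit added after seeing the data that leaves 1 residual degree of freedom. Pcm1, which is not a member, passed with no filter, at an edgeR adjusted p of 0.0162. The replicate block alone changed no call and no direction of a member, with a median of -0.10. The median log2 fold change of the members lay between -0.20 and 0.06 with single libraries left out, 0.06 without control replicate 1 only, and was 0.057 in the fit without both libraries numbered 1. Directions held in every alternative for 10 members, B9d1, Bbs2, Bbs9, Ift20, Ift27, Ift46, Ift57, Kifap3, Mks1 and Tctn2. With 3 libraries a group, edgeR recovered 2-fold changes in 35% of simulated cases. These were drawn from tested genes of any level, without the GC trend of control replicate 1, so the share is not one for low genes. Smaller changes, those of low genes included, cannot be judged.

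With single libraries left out, log2 fold changes ranged from -0.086 to 0.23 for Ift22, -0.044 to 0.048 for Ift52, -0.81 to 0.28 for Ift74, -0.61 to 0.28 for Ift80, -0.85 to 0.17 for Ift81, -0.47 to 0.14 for Ift88, -0.21 to 0.038 for Ift172, -0.17 to 0.075 for Ift43, -0.10 to 0.030 for Ift122, -7.9e-05 to 0.16 for Ift140, -0.21 to 0.074 for Wdr19, -0.37 to 0.0081 for Wdr35, -0.72 to 0.018 for Kif3a, -0.14 to 0.062 for Kif3b and -1.33 to 0.44 for Dync2h1. They ranged from -0.061 to 0.13 for Bbs1, -0.23 to 0.26 for Bbs4, -0.45 to 0.058 for Bbs5, -0.53 to 0.067 for Bbs7, -0.10 to 0.19 for Bbs10, -0.30 to 0.49 for Bbs12, -0.25 to 0.14 for Arl6, -0.54 to 0.15 for Arl13b, -0.21 to 0.067 for Tctn1, -0.015 to 0.097 for Tctn3 and -0.19 to 0.11 for Cc2d2a. Outside the set the ranges were -0.89 to 0.14 for Lztfl1, -0.70 to 0.071 for Iqcb1, -1.42 to 0.22 for Pcm1, -0.72 to 0.035 for Ttbk2, -0.87 to 0.25 for Rfx3 and -0.48 to 0.095 for Rfx7.

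Values that turned sign with GC and length trends removed were 0.028 for Ift52, 0.11 for Ift80, 0.0079 for Ift88, 0.020 for Wdr19, 0.26 for Bbs4, 0.089 for Bbs5, 0.17 for Arl6 and -0.0016 for Tctn3, and with the replicate block added 0.025, 0.11, 0.011, 0.018, 0.25, 0.074 and 0.17 for the same genes but Tctn3. With no filter they were 0.063 for Ift52, 0.016 for Ift43, 0.038 for Ift122, 0.0096 for Kif3b, 0.070 for Bbs4 and 0.011 for Tctn1, and with filterByExpr 0.021 for Ift52, 0.0015 for Ift122 and 0.020 for Bbs4. Ift52 was at 0.0082 with DESeq2 size factors and with DESeq2, 0.0045 with library totals, 0.0025 with limma on log2(FPKM + 1) and 0.0026 on log2(FPKM + 0.1), and Bbs4 at 0.0058, 0.0062 and 0.010 with totals and the 2 limma fits. The cause was not tested.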
